A study of Mus musculus with 18 samples.

Results

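The dependence of an Mdm2 knockdown on diet was examined in mouse liver as a difference of differences. For each gene, the effect of an Mdm2 antisense oligonucleotide (ASO, a short synthetic strand that binds an RNA and leads to its degradation) on a CDAHFD diet was compared with its effect on an HFHC diet. Each effect is the mean of the Mdm2 ASO livers minus the mean of the control ASO livers of the same diet, on the log2 scale of the deposited values plus 0.5. The difference is the effect on CDAHFD minus the effect on HFHC, so a positive difference is called higher on CDAHFD and a negative one lower on CDAHFD. Of 33235 genes in the tables, 16333 had a value of at least 1 in at least 3 HFHC and 5 CDAHFD libraries and were tested.

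The 4 groups were livers of mice labelled wild type and given the control ASO, GalNAc-conASO, on HFHC or on CDAHFD, and livers labelled MDM2 knockdown and given GalNAc-Mdm2ASO on HFHC or on CDAHFD. All 4 groups therefore received an ASO carrying GalNAc, and none was untreated or fed chow. HFHC is given only as an abbreviation in the labels, while CDAHFD is a high-fat diet that lacks choline and has defined amino acids, known for steatohepatitis in mice. The labels give no strain, sex, age, dose or duration, and nothing says whether the replicates of a group were housed or processed apart, so the p-values measure the spread between these samples. Replicates 6 and 7 of the Mdm2 ASO on HFHC held the same value in every gene and were counted as 1 library, named replicate 6-7. This left 17 libraries of the 18 deposited samples, 4 control and 3 Mdm2 ASO on HFHC (17800000 to 18800000 reads each) and 5 and 5 on CDAHFD (22400000 to 31500000). The diets came in separate tables, each normalized on its own, so a difference between the ASO effects cannot be told apart from a difference between the experiments, and a level on one diet set beside a level on the other is a description.

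Mdm2 is the ubiquitin ligase that marks the transcription factor p53 for degradation, and p53 in turn drives transcription of Mdm2. Loss of Mdm2 in hepatocytes releases p53, which can halt the cell cycle, start cell death and change lipid metabolism. GalNAc, a sugar, is taken up by hepatocytes through their asialoglycoprotein receptor. Liver also holds resident macrophages (Kupffer cells), endothelial cells, stellate cells, bile duct cells (cholangiocytes) and blood cells, and injured liver recruits monocytes and neutrophils. In bulk RNA, more cells of a type and more RNA per cell cannot be told apart.

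Mdm2 itself fell on both diets, and by amounts that the test did not separate. It stood at 907, 954, 963 and 956 in the control ASO livers on HFHC and at 420, 362 and 304 with the Mdm2 ASO. On CDAHFD the control livers held 1443, 1572, 1516, 1650 and 1644 and the Mdm2 ASO livers 861, 566, 646, 564 and 598. The groups did not overlap on either diet. The effects were -1.39 on HFHC and -1.29 on CDAHFD, a difference of 0.10 ± 0.17 (SE, limma adjusted p = 0.705). The difference was 0.28 ± 0.15 for Mdm4, a partner of Mdm2 that also restrains p53 (adjusted p = 0.194, or 0.039 with a difference of 0.45 once the trend with GC content and length was removed), and 0.03 ± 0.15 for Trp53, the p53 gene (adjusted p = 0.902). For Cdkn1a, the cell cycle inhibitor p21 and a textbook p53 target, it was -0.20 ± 0.27 (adjusted p = 0.647). Of the receptor genes, Asgr1 passed with a difference of 0.49 ± 0.15 (adjusted p = 0.023) although neither diet passed alone, and Asgr2 had 0.21 ± 0.15 (adjusted p = 0.342). The Asgr1 call was lost in 7 of 33 alternative settings, among them several that left out 1 library, with an adjusted p of up to 0.168.

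The ASO effect differed between the diets in 3832 of 16333 genes (23.5%, limma-trend, Benjamini-Hochberg adjusted p under 0.05). It was higher on CDAHFD in 1606 (9.83%) and lower in 2226 (13.6%), and 1815 differed by at least 2-fold, 490 of them higher and 1325 lower. The median difference was 0.72 among the genes called higher and -1.24 among those called lower, beside 0.00627 over all genes tested. An unadjusted p under 0.05 was reached by 5719 genes. The share of calls that were lower, 58.1%, was 44.6% with quantile normalization within each table (2440 higher, 1961 lower) and 73.3% with every library scaled to the same total (972 higher, 2673 lower). Those scalings moved the median difference of all genes to 0.102 and -0.11.

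**Figure D1:**
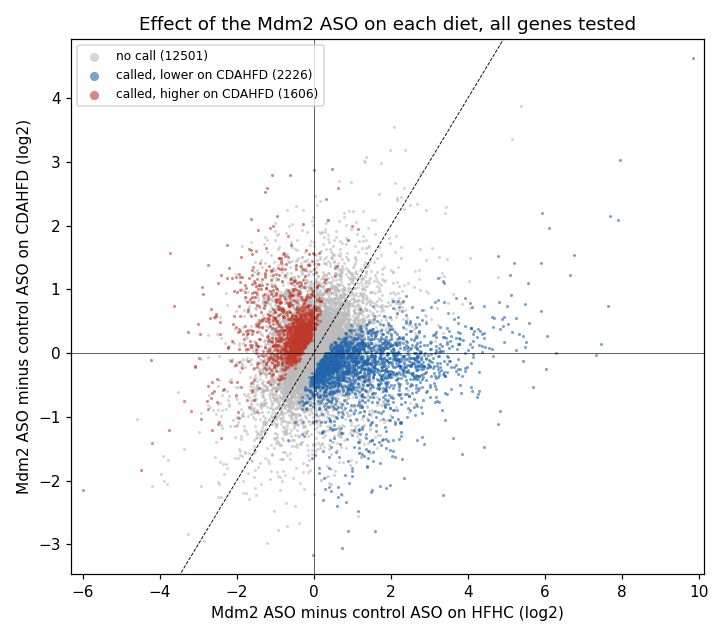
Mdm2 ASO minus control ASO on HFHC (horizontal, log2) against the same on CDAHFD (vertical, log2), with 1 point per gene tested and the dashed line marking equal effects. The 2226 genes called lower on CDAHFD spread to the right along the horizontal axis, and the 1606 called higher lie to the left of the line.

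The same fit called 4595 genes on HFHC (28.1%) and 2980 on CDAHFD (18.2%), which places each difference among the within-diet calls. Of the 2226 genes lower on CDAHFD, 1494 rose on HFHC and passed no test on CDAHFD, 356 fell on CDAHFD and passed none on HFHC, and 211 rose on HFHC and fell on CDAHFD. A further 130 passed on neither diet, 31 rose on both and 4 fell on both. Of the 1606 genes higher on CDAHFD, 771 fell on HFHC without a call on CDAHFD, 415 rose on CDAHFD without a call on HFHC, and 153 fell on HFHC and rose on CDAHFD. The other classes held 228 with neither call, 32 that fell on both and 7 that rose on both. In all, 364 genes moved in opposite directions on the 2 diets.

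**Figure D2:**
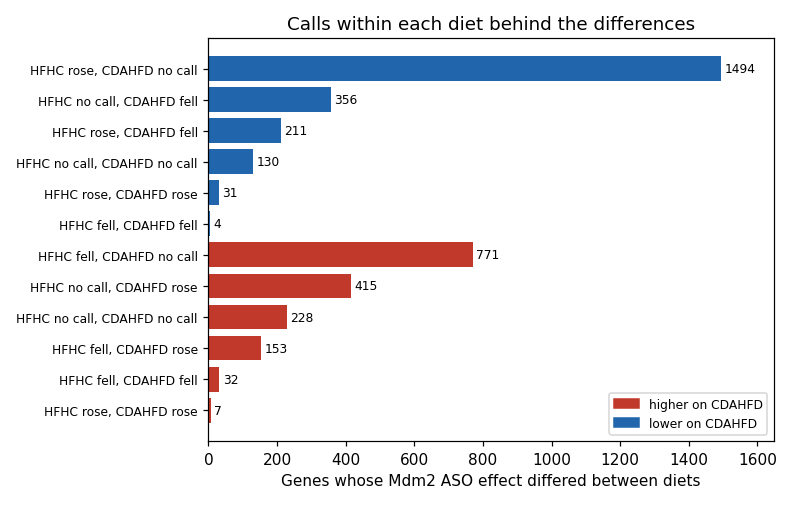
Genes whose ASO effect differed between diets (horizontal axis, number of genes), split by whether they rose, fell or passed no test within each diet. The longest bar holds the 1494 genes that rose on HFHC and passed no test on CDAHFD.

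Of the gene lists examined, 3 had a median difference beyond -2, those of phagocyte receptors and signalling, of neutrophils and monocytes and of patrolling monocytes. Phagocytes are cells that engulf debris and bind antibody. The promoters of 3 genes of these lists are printed here as examples, and all 3 hold the letters searched for. They do not stand for the lists, since the promoter of Ptpn6, a phagocyte signalling gene, held no match. The macrophage factor PU.1 binds a purine-rich core, and its letters GAGGAA were searched on both strands of the 300 bases around each start site in RefSeq (GRCm38.p6, 250 before to 50 after). Capitals mark the match, which reads TTCCTC where it lies on the other strand. A further promoter, of the interferon-induced GTPase gene Gbp7, is marked for GAAANNGAA, a core of the element bound by interferon-activated factors. Fcgr4 lies at chr1:171018676-171018975 (plus strand), Laptm5 at chr4:130913066-130913365 (plus), Itgam at chr7:128062390-128062689 (plus) and Gbp7 at chr3:142530086-142530385 (plus).
Fcgr4: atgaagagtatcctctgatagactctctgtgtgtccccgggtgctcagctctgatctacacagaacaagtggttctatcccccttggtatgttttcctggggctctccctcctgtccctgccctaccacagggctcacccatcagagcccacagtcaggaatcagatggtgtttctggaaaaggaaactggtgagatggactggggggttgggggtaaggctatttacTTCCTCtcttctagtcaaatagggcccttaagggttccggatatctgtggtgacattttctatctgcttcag
Laptm5: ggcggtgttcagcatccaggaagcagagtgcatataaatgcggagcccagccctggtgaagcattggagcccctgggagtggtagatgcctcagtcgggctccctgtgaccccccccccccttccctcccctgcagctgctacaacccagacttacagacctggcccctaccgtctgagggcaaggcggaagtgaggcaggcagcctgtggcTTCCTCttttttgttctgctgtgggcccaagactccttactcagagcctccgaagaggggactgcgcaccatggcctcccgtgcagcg
Itgam: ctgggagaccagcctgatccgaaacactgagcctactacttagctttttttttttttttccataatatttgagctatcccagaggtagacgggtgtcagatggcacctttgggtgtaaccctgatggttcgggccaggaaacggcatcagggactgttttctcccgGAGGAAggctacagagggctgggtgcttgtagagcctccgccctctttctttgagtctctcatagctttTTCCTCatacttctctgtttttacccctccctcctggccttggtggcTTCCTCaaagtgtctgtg
Gbp7: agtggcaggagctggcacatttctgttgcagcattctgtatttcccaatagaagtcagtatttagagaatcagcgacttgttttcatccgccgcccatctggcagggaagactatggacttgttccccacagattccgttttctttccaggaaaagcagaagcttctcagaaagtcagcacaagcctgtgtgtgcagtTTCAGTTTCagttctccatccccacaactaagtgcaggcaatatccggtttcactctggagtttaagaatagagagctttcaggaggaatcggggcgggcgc

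A promoter was matched for 18 of the 25 phagocyte genes tested, and 10 of the 18 (55.6%) held GAGGAA, against 28.3% of 27025 promoters in the table. Among all called genes with a promoter the share was 33.9% of 1746 lower on CDAHFD and 24.7% of 1230 higher. GAAANNGAA was in 14 of 20 promoters of interferon-stimulated genes (70%) against 8.57% of all. Of 16 named genes in each direction, chosen by smallest p and by size, 11 lower and 6 higher had a promoter, of which 5 and 3 held GAGGAA. In those 11 and 6, the p53 half-site was in 0 and 1, TGANTCA (AP-1) in 1 and 0, CACGTG (the E-box) in 2 and 1 and GAAANNGAA in 0 and 1, and over all promoters these were in 8.37%, 7.93%, 7.24% and 8.57%. A match is a string of letters and not a measured binding site.

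Of 25 phagocyte receptor and signalling genes, 23 were lower on CDAHFD and 0 higher, against 13.6% of all genes called lower, with a median difference of -2.84. All 25 differences were negative, and the count of calls lay between 21 and 23 over every alternative. Itgb2, the beta chain of the leukocyte integrins, read 322, 352, 273 and 409 in control livers on HFHC and 4588, 5019 and 4433 with the Mdm2 ASO. On CDAHFD it read 400, 671, 571, 818 and 644 in control livers and 286, 462, 302, 467 and 786 with the Mdm2 ASO. The Mdm2 ASO livers on HFHC stood clear of all others, while the CDAHFD groups overlapped. The difference was -4.29 ± 0.35 (limma adjusted p = 2.1e-07), a 19.6-fold smaller ratio on CDAHFD. Laptm5, a lysosomal membrane protein of blood cells, differed by -2.84 ± 0.24 (adjusted p = 3.19e-07).

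The 8 genes of smallest p in this direction included several signalling genes of leukocytes. Lyn, a Src-family kinase downstream of Fc and B cell receptors, stood at 498, 464, 438 and 561 in HFHC controls and at 2657, 2764 and 2629 with the Mdm2 ASO. On CDAHFD the 5 controls lay between 556 and 694 and the 5 Mdm2 ASO livers between 436 and 639. Its difference was -2.64 ± 0.17 (limma adjusted p = 4.98e-08). Ptpn6 (SHP-1), the phosphatase that inhibitory receptors recruit, differed by -2.35 ± 0.16, and Ptpn1, a phosphatase of insulin and cytokine receptors, by -2.17 ± 0.14. Dusp12, a dual-specificity phosphatase, differed by -1.97 ± 0.14. These rose on HFHC and passed no test on CDAHFD.

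In the other 4 of the 8 the effects were in opposite directions. Stap1, a signalling adaptor, rose on HFHC by 2.21 and fell on CDAHFD by 0.58, a difference of -2.79 ± 0.19. Cd47, the surface protein that tells phagocytes not to engulf a cell, rose by 1.08 and fell by 0.33 (difference -1.41 ± 0.10). Rap1b, a small GTPase that activates integrins, rose by 1.40 and fell by 0.31 (difference -1.71 ± 0.12). Atp2b1, a plasma membrane calcium pump, rose by 1.41 and fell by 0.26 (difference -1.67 ± 0.12). The limma adjusted p was 4.98e-08 for the first 3 and 5.92e-08 for Atp2b1.

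**Figure D3:**
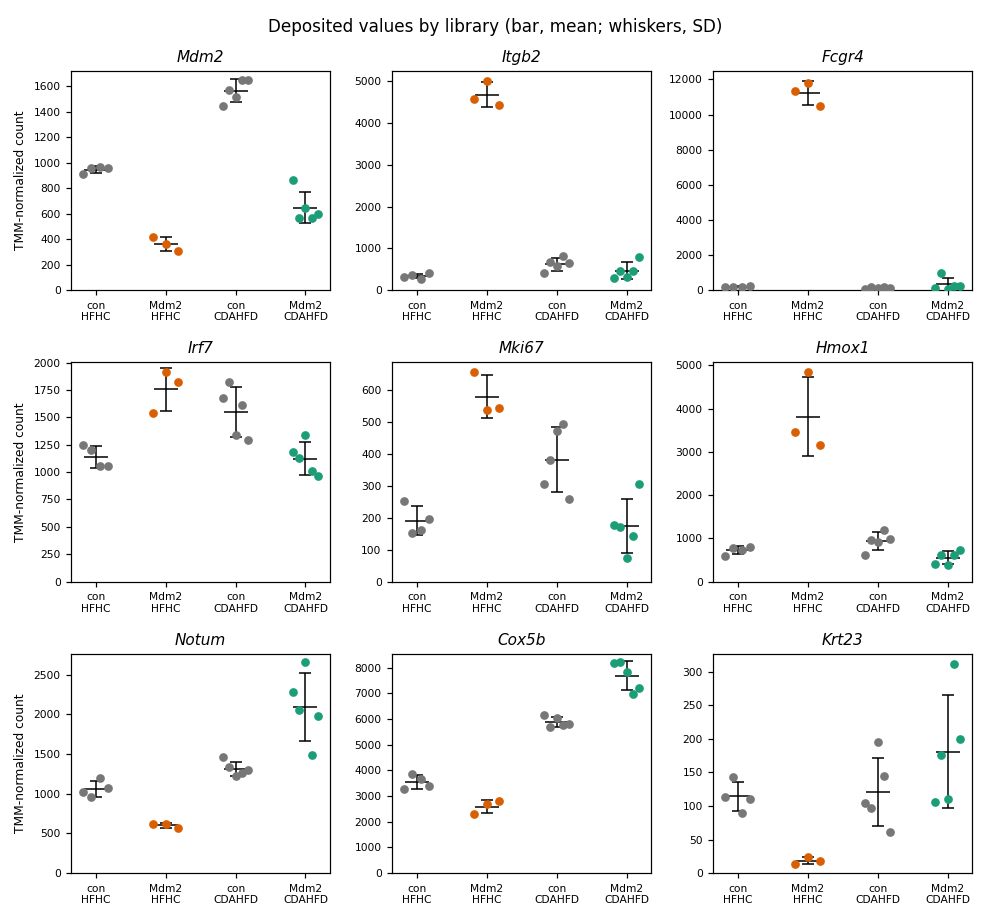
Deposited TMM-normalized count (vertical axis, from 0) in each library of the 4 groups for 9 genes, with the bar at the mean and whiskers of 1 SD. Itgb2, Fcgr4 and Hmox1 are high in the Mdm2 ASO livers on HFHC, Notum and Cox5b move in opposite directions on the 2 diets, and Mdm2 is lower with its ASO on both.

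Genes of blood monocytes and neutrophils differed as much as the phagocyte receptors did. Of 17 tested, 13 were lower on CDAHFD and 0 higher (median -2.95), and of 14 genes of patrolling monocytes, the subset that crawls along vessel walls, 9 were lower and 1 higher (median -2.96). Over all genes 13.6% were lower and 9.83% higher. Fcgr4 and Spn are in both lists. Fcgr4, an activating Fc receptor, read 165, 189, 181 and 224 in HFHC controls and 11368, 11813 and 10495 with the Mdm2 ASO, and 81.5, 182, 139, 171 and 139 in CDAHFD controls. The Mdm2 ASO livers on CDAHFD read 140, 943, 77.1, 213 and 227, so replicate 7 stood above the other four, and the difference was -5.23 ± 0.66 (limma adjusted p = 1.52e-05). Spn (CD43, leukosialin) had 32.6 to 69.0 in HFHC controls and 2424 to 2542 with the Mdm2 ASO, against 29.0 to 62.9 and 23.8 to 121 on CDAHFD (difference -5.34 ± 0.53, adjusted p = 1.15e-06). Only the HFHC groups of Spn were apart.

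Itgam, the CD11b integrin chain of monocytes and neutrophils, differed by -3.98 ± 0.41, and Csf3r, the receptor for the neutrophil growth factor G-CSF, by -2.95 ± 0.33. Itgax, the CD11c chain, differed by -4.25 ± 0.46, and Adgre4, an adhesion receptor of monocytes, by -3.92 ± 0.38 (all limma adjusted p of 3.67e-06 or less). The summed value of the 18 neutrophil and monocyte genes was 8410 to 10900 in HFHC controls, 25700 to 31500 with the Mdm2 ASO, 12300 to 16800 in CDAHFD controls and 11200 to 16500 with the Mdm2 ASO. None of the 18 was at 0 throughout a group. The part of these cells in the other differences was not tested.

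Genes of liver macrophages followed in part. Of 14 Kupffer cell genes 5 were lower on CDAHFD and 0 higher (median -0.866), beside 13.6% and 9.83% of all genes. Of 16 genes of lipid-associated macrophages 5 were lower and 1 higher (median -0.237, with the sign reversed under the replicate block). The difference was positive in 4 of the 14 and in 7 of the 16. On HFHC 4 of the 14 rose and 0 fell, while 4 of the 16 rose and 7 fell. Csf1r, the receptor that macrophages need to survive, differed by -2.17 ± 0.27, and Nr1h3, the oxysterol receptor LXR alpha, by -1.05 ± 0.13. Cd5l, a protein secreted by Kupffer cells, read 2343, 4713, 2893 and 4024 in HFHC controls and 7542, 9340 and 7315 with the Mdm2 ASO. On CDAHFD it read 853, 1627, 1496, 1826 and 1299 in controls and 566, 993, 593, 777 and 1037 with the Mdm2 ASO. It thus rose on HFHC and fell on CDAHFD (difference -2.09 ± 0.34, limma adjusted p = 0.000202). Cd68, a lysosomal glycoprotein of macrophages, differed by -2.40 ± 0.41, and Spp1, the secreted phosphoprotein osteopontin, moved the other way with 2.12 ± 0.51 (adjusted p = 0.00554). It is also a member of the cholangiocyte list, whose 15 differences were all positive. Spp1 ran from 3159 to 10291 in HFHC controls and from 1617 to 2464 with the Mdm2 ASO.

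Other blood cells were covered by 4 lists. Of 9 platelet genes 5 were lower on CDAHFD (median -1.97), of 12 B cell and plasma cell genes 4 (median -0.905), of 7 red blood cell genes 2 (median -1.56) and of 17 T and NK cell genes 1 (median -0.995), with 0 higher in each. Over all genes 13.6% were lower, a share above that of the T and NK cell genes. The B cell count ranged from 1 to 4, the red blood cell count from 2 to 6 and the T and NK count from 0 to 3 over the alternatives. The red blood cell count was 6 without control replicate 1 on CDAHFD, the B cell count was 1 to 3 without any 1 library, and the T and NK count reached 3 without control replicate 1 on CDAHFD. Ppbp, a platelet chemokine, read 10.1 to 21 in HFHC controls and 258 to 514 with the Mdm2 ASO, against 11.0 to 22.4 and 12.5 to 38.7 on CDAHFD (difference -4.24 ± 0.48, limma adjusted p = 4.53e-06). Itga2b, the platelet integrin chain, rose on both diets, by 2.05 and 0.82, with a difference of -1.23 ± 0.22. Cd79b, a chain of the B cell receptor, differed by -4.16 ± 0.59. Of 14 genes of dendritic cells and antigen presentation, 0 were called by limma, and the other settings, edgeR and DESeq2 included, called between 0 and 3, all lower.

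Among genes with a group mean of at least 32, the 8 largest negative differences belonged to genes with low values outside the Mdm2 ASO livers on HFHC. That was the only group in which these genes reached such a mean. Sh2d1b1, an adaptor of NK cells and other leukocytes, read 7.86 to 14.0 in HFHC controls, 640 to 754 with the Mdm2 ASO, 11.3 to 35.8 in CDAHFD controls and 5.67 to 90 with the Mdm2 ASO (difference -6.28 ± 0.77, limma adjusted p = 9.93e-06). Its highest CDAHFD library was again Mdm2 ASO replicate 7. Il10, an anti-inflammatory cytokine, read 78.8 to 162 in the Mdm2 ASO livers on HFHC and at most 4.31 in their controls, with at most 45.0 on CDAHFD (difference -6.22 ± 1.42). Mpo, the myeloperoxidase of neutrophil granules, read 152 to 304 against at most 16.0 elsewhere (difference -6.29 ± 1.21). Radx, a DNA replication protein, read 44.5 to 68.5 against at most 9.17 (difference -5.89 ± 0.92), and Klra17, a lectin receptor of the Ly49 family, 616 to 715 against at most 69.1 (difference -5.81 ± 1.32).

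Ankdd1a, Negr1 and Htra4 read 228 to 254, 225 to 274 and 340 to 444 in the Mdm2 ASO livers on HFHC and at most 19.9, 18.8 and 28.3 elsewhere, with differences of -7.35 ± 1.31, -7.31 ± 1.51 and -6.90 ± 1.55. Negr1 is a neuronal adhesion protein and Htra4 a serine protease. With so few reads outside 1 group, these sizes move with the value added before the logarithm and bound nothing. With 4 added in place of 0.5, they were -5.31, -5.38 and -5.54. Without Mdm2 ASO replicate 7 on CDAHFD they were -8.19, -8.20 and -7.80, and that of Il10 was -7.23. Without control replicate 5 on HFHC or on CDAHFD the difference of Mpo was -7.14 or -6.89. That of Klra17 lay between -6.63 (without control replicate 1 on CDAHFD) and -4.98 (without control replicate 4 on HFHC). Without control replicate 2 or 4 on HFHC that of Htra4 was -6.26 or -7.52. Without Mdm2 ASO replicate 9 or 10 on CDAHFD that of Il10 was -5.60.

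Genes of inflammatory signalling followed the same direction in part. Of 28 cytokine, chemokine and inflammasome genes, 15 were lower on CDAHFD and 0 higher (median -1.17), beside 13.6% and 9.83% of all genes. The count of lower calls was 11 to 16 over the alternatives. Tgfb1, the cytokine that drives stellate cell activation, read 238, 247, 203 and 286 in HFHC controls and 1071, 1242 and 1056 with the Mdm2 ASO, against 334 to 434 and 265 to 549 on CDAHFD (difference -2.33 ± 0.24, limma adjusted p = 1.8e-06). Ccl6, a chemokine of myeloid cells, rose on HFHC by 1.64 and fell on CDAHFD by 0.77 (difference -2.41 ± 0.33). Casp1, the inflammasome protease, differed by -2.45 ± 0.41 (adjusted p = 0.000236).

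More interferon-stimulated genes passed the test within CDAHFD than within HFHC. Of 29 such genes, 19 were lower on CDAHFD and 1 higher (median -0.851), beside 13.6% and 9.83% of all genes. On CDAHFD 18 of the 29 fell and 0 rose, where 10.1% of all genes fell and 8.11% rose. On HFHC 9 rose and 2 fell, where 15.2% of all genes rose and 12.9% fell. Irf7, the transcription factor that amplifies the interferon response, read 1245, 1201, 1053 and 1057 in HFHC controls and 1537, 1910 and 1826 with the Mdm2 ASO. On CDAHFD it went from 1675, 1823, 1338, 1610 and 1294 to 1180, 1128, 1339, 1008 and 960. It rose on HFHC and fell on CDAHFD, with groups apart on HFHC and overlapping slightly on CDAHFD (difference -1.08 ± 0.17, limma adjusted p = 0.000124). Zbp1, a sensor of Z-form nucleic acid, also rose and fell (difference -1.25 ± 0.19). Ifit2, an RNA-binding antiviral protein, passed on CDAHFD alone, from 147 to 217 in controls down to 49.2 to 112 with the Mdm2 ASO (difference -1.68 ± 0.28). Gbp7, whose promoter is printed above, rose on HFHC from 147 to 187 in controls to 294 to 403 (difference -1.40 ± 0.19, adjusted p = 2.51e-05).

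In the cell cycle genes both diets contributed to the difference. Of 31, 24 were lower on CDAHFD and 0 higher (median -1.70), beside 13.6% and 9.83% of all genes. All 31 differences were negative, and the count of lower calls was 19 to 25 over the alternatives. Within the diets 15 rose on HFHC, beside 15.2% of all genes, and 15 fell on CDAHFD, beside 10.1%. Mki67, the marker of dividing cells, read 254, 153, 163 and 196 in HFHC controls and 659, 538 and 544 with the Mdm2 ASO, and went on CDAHFD from 305, 382, 473, 493 and 260 to 179, 172, 74.8, 142 and 305. Its difference was -2.85 ± 0.42 (limma adjusted p = 7.81e-05). Top2a, the topoisomerase of dividing cells, rose and fell likewise (difference -2.70 ± 0.43). Mcm3, a subunit of the replicative helicase, passed on HFHC alone (difference -2.19 ± 0.29).

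Of the genes that rose on HFHC and fell on CDAHFD, 2 of the 6 with the largest changes on both belong to mitosis. Ncapg, a condensin subunit, went from 8.99 to 15.5 up to 35.4 to 54.6 on HFHC and from 12.9 to 42.7 down to 2.26 to 13.4 on CDAHFD (difference -3.43 ± 0.68). Aurkb, the kinase that corrects chromosome attachments, had a difference of -3.17 ± 0.55. Rnf144a, a ubiquitin ligase, read 192, 171, 159 and 191, then 716, 735 and 717 on HFHC, and 267, 360, 347, 267 and 208, then 101, 117, 78.2, 59.3 and 127 on CDAHFD. Its groups were apart on both diets (difference -3.63 ± 0.28, limma adjusted p = 1.46e-07). Prss30, a serine protease, differed by -4.04 ± 0.52, Rab44, a Rab GTPase of blood cells, by -3.49 ± 0.54, and Slfn4, a Schlafen gene of myeloid cells, by -2.86 ± 0.52.

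**Figure D4:**
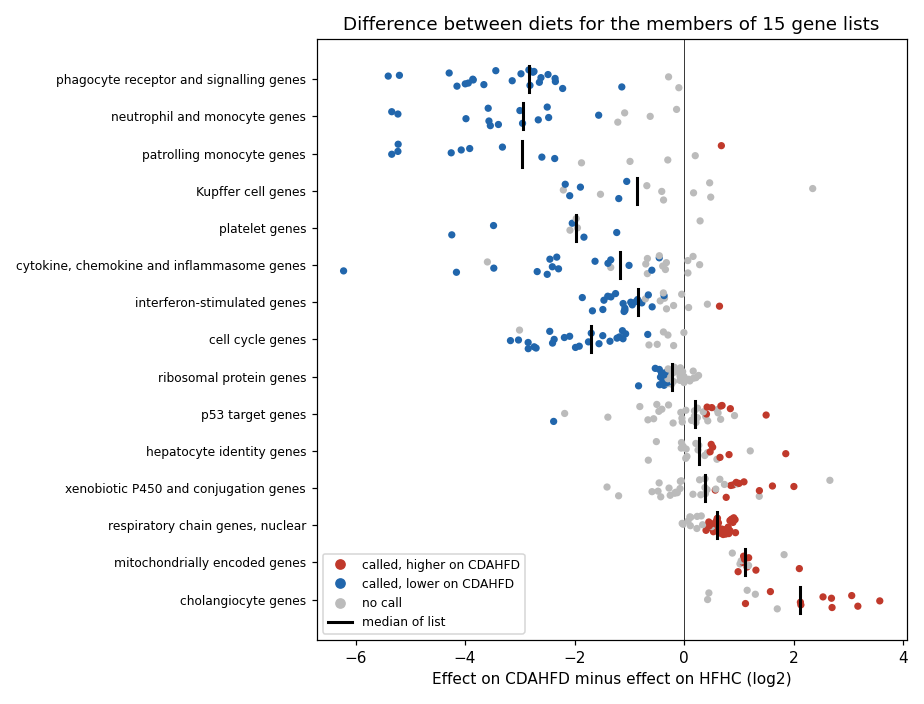
Effect on CDAHFD minus effect on HFHC (horizontal axis, log2) for each tested member of 15 gene lists, with 1 point per gene and a bar at the list median. Phagocyte and monocyte lists centre near -3, cell cycle genes at -1.70, nuclear respiratory chain genes at 0.605 and cholangiocyte genes at 2.12.

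In the other direction, cholangiocyte genes had the highest median of the lists. Of 15, 10 were higher on CDAHFD and 0 lower, against 9.83% of all genes called higher (median 2.12), and all 15 differences were positive. Krt23, a keratin of reactive duct cells, read 113, 143, 89.5 and 111 in HFHC controls and 13.9, 23.6 and 18.2 with the Mdm2 ASO, and 61.7 to 195 and 106 to 312 on CDAHFD. The HFHC groups were apart and the CDAHFD groups overlapped (difference 3.17 ± 0.47, limma adjusted p = 8.23e-05). Cftr, an anion channel of duct cells, fell on HFHC from 12.9 to 45.0 down to 3.03 to 4.73 (difference 3.57 ± 0.78, adjusted p = 0.00254). The summed value of the 15 genes, of which Spp1 made up 54.1% to 75.3% in each library, was 4620 to 13700 in HFHC controls, 2960 to 3770 with the Mdm2 ASO, 4530 to 13200 in CDAHFD controls and 7920 to 13400 with the Mdm2 ASO. Without Spp1 the sum of the other 14 was 1460 to 3460, 1140 to 1370, 1520 to 3530 and 2220 to 3320 in the same order. None was at 0 throughout a group.

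Genes of the respiratory chain, the mitochondrial complexes that make ATP, moved in small and even steps. Of 41 nuclear genes, 30 were higher on CDAHFD and 0 lower (median 0.605), beside 9.83% and 13.6% of all genes. On HFHC 28 of the 41 fell and 0 rose (12.9% and 15.2% of all genes), and on CDAHFD 17 rose and 1 fell (8.11% and 10.1%). Cox5b, a subunit of complex IV, read 3287, 3856, 3663 and 3387 in HFHC controls and 2294, 2690 and 2795 with the Mdm2 ASO. On CDAHFD it read 6159, 5688, 6046, 5788 and 5798 in controls and 8192, 8215, 7828, 6982 and 7215 with the Mdm2 ASO. The groups were apart on both diets, in opposite directions (difference 0.83 ± 0.11, limma adjusted p = 3.27e-05). Cox6b1, another subunit of complex IV, differed by 0.93 ± 0.14.

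Of the 13 genes encoded in mitochondrial DNA, 8 were higher on CDAHFD and 0 lower (median 1.10), beside 9.83% and 13.6% of all genes. The count of higher calls ranged from 4 to 13 over the alternatives. It was 5 without control replicate 4, Mdm2 ASO replicate 6-7 or Mdm2 ASO replicate 10 on HFHC. ND3, a subunit of complex I, read 86.7, 75.2, 86.3 and 99.9 in HFHC controls and 56.5, 45.4 and 35.4 with the Mdm2 ASO, and rose on CDAHFD from 170 to 351 up to 319 to 687 (difference 2.10 ± 0.33, limma adjusted p = 0.000122). ND2 differed by 1.31 ± 0.34 (adjusted p = 0.00957), a call lost with the replicate number as a block (adjusted p = 0.0612 and 0.0804). Nuclear copies of mitochondrial DNA can share reads with these genes. The tables also differed in ND6, the gene on the opposite strand, with a control mean of 4922 on HFHC and 53544 on CDAHFD, and the cause was not tested (ND6 was looked up after its values were seen).

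The 8 genes of smallest p that were higher on CDAHFD included enzymes and receptors of hepatocytes. Gcgr, the glucagon receptor, read 6191, 7107, 6841 and 6712 in HFHC controls and 4175, 4775 and 4948 with the Mdm2 ASO. On CDAHFD it read 12388, 10585, 11741, 11445 and 12286 and then 15903, 15936, 18742, 13829 and 17312. It fell on HFHC and rose on CDAHFD with groups apart on each (difference 1.02 ± 0.13, limma adjusted p = 2.15e-05). Notum, a secreted enzyme that inactivates Wnt proteins, read 954 to 1195 and then 564 to 624 on HFHC, and 1225 to 1457 and then 1486 to 2659 on CDAHFD (difference 1.46 ± 0.18, adjusted p = 1.02e-05). Adcy6, an adenylyl cyclase that makes cyclic AMP, differed by 1.16 ± 0.15, Gstt2, a glutathione transferase, by 0.98 ± 0.13, and Mmaa, which delivers the vitamin B12 cofactor, by 0.95 ± 0.12. These too fell on HFHC and rose on CDAHFD.

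Of the other 3, Cdc42bpg, a kinase activated by Cdc42, passed on CDAHFD alone, from 661 to 716 up to 1065 to 1459 (difference 0.99 ± 0.13). Cyp2u1, a fatty acid hydroxylase, passed on HFHC alone, from 151 to 228 down to 50.9 to 70.7 (difference 2.03 ± 0.26). Lars2, the leucyl-tRNA synthetase of mitochondria, had the smallest p of all genes higher on CDAHFD. It read 3995, 5976, 2473 and 3780 in HFHC controls and 1066, 1002 and 1359 with the Mdm2 ASO, against 1464 to 1962 and 1847 to 2474 on CDAHFD (difference 2.11 ± 0.26, limma adjusted p = 9.93e-06).

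Among genes with a group mean of at least 32, several of the largest positive differences were in genes of low or uneven level. Cyp21a1, the adrenal steroid 21-hydroxylase, read 262, 21.3, 45.3 and 82.9 in HFHC controls and 0.926, 1.89 and 14.1 with the Mdm2 ASO (difference 4.10 ± 1.00, limma adjusted p = 0.00583). Without control replicate 1, Mdm2 ASO replicate 6-7 or Mdm2 ASO replicate 10 on HFHC it was 3.46, 3.42 or 5.10. H2-M2, a nonclassical MHC gene, differed by 3.59 ± 0.58, Irx1, a homeobox factor, by 3.38 ± 0.55, and Slc6a7, a proline transporter, by 3.20 ± 0.74. Cyp4a12b, a male-biased fatty acid hydroxylase that has near-identical neighbours, differed by 3.27 ± 0.83, and by 2.56 or 2.57 without control replicate 1 or Mdm2 ASO replicate 6-7 on HFHC.

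Of genes that fell on HFHC and rose on CDAHFD, Cyp46a1, which hydroxylates cholesterol, showed the change at a moderate level. It read 377, 405, 500 and 333, then 66.7, 158 and 151 on HFHC, and 111, 51.8, 67.0, 94.3 and 61.7, then 86.9, 236, 186, 171 and 116 on CDAHFD (difference 2.78 ± 0.44, limma adjusted p = 0.000138). The groups were apart on HFHC and overlapped on CDAHFD. Col4a6, a basement membrane collagen chain, differed by 3.24 ± 0.62, Bex4, a small X-linked gene, by 2.92 ± 0.58, and Ulk4, a kinase-like protein, by 2.55 ± 0.45. The zinc finger gene Zfp979 differed by 2.06 ± 0.48, and Mir6236, listed as a microRNA gene, by 3.54 ± 0.62. Mir6236 read 114 to 421 and then 42.4 to 58.3 on HFHC, and only 1.83 to 5.64 and then 5.74 to 19.3 on CDAHFD. The HFHC controls stood in the same order for Mir6236 as for Lars2, and the cause was not tested.

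Among hepatocyte genes, the xenobiotic and identity lists had calls in 1 direction. Of 37 xenobiotic P450 and conjugation genes 10 were higher on CDAHFD and 0 lower (median 0.382), and of 21 hepatocyte identity genes 6 and 0 (median 0.266). Over all genes 9.83% were higher and 13.6% lower. The members were not uniform, with negative differences in 14 of the 37 and 5 of the 21. Of the 37, 2 rose and 14 fell on HFHC, and 4 rose and 6 fell on CDAHFD. Ugt2b5, a glucuronosyltransferase, differed by 1.09 ± 0.18. Foxa2, a pioneer factor of the hepatocyte programme, fell on HFHC (difference 1.85 ± 0.53, limma adjusted p = 0.0164), and its difference was 2.50 without Mdm2 ASO replicate 6-7 and 1.11 without replicate 10 on HFHC. In the 24 fatty acid and triglyceride synthesis genes 2 were higher and 2 lower (median 0.12), beside 9.83% and 13.6% of all genes. The higher ones numbered 5 without Mdm2 ASO replicate 10 on HFHC and 4 without Mdm2 ASO replicate 10 on CDAHFD. The lower ones numbered 1 when Mdm2 ASO replicate 9 or 10 or control replicate 2 or 4 on HFHC was left out. Fasn, the fatty acid synthase, fell on HFHC (difference 0.92 ± 0.24), as did Mlxipl, the glucose-sensing factor ChREBP that drives it, which rose on CDAHFD (difference 1.17 ± 0.16).

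G6pdx, the enzyme that feeds NADPH to lipid synthesis, went the other way. It read 178, 129, 114 and 152 in HFHC controls and 591, 650 and 483 with the Mdm2 ASO, against 149 to 218 and 113 to 212 on CDAHFD (difference -2.51 ± 0.27, limma adjusted p = 2.49e-06). Pparg, the receptor that promotes fat storage, read 426, 454, 464 and 425 and then 883, 969 and 859 on HFHC. On CDAHFD it read 308, 332, 316, 307 and 263 and then 156, 263, 188, 246 and 215. It rose on one diet and fell on the other (difference -1.56 ± 0.18, adjusted p = 6.22e-06). In its list of 20 lipid droplet and PPAR gamma target genes 3 were higher and 3 lower (median 0.242), beside 9.83% and 13.6% of all genes. The higher ones numbered 1 without control replicate 1 or 5 on HFHC, and the lower ones 1 when Mdm2 ASO replicate 9 or 10 or control replicate 2 or 4 on HFHC was left out.

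Of 28 fatty acid oxidation and PPAR alpha target genes 3 were higher and 0 lower (median 0.22), of 24 lipoprotein export genes 4 and 2 (median 0.194), of 25 bile acid genes 2 and 3 (median 0.234) and of 25 cholesterol synthesis and uptake genes 0 and 1 (median -0.199), where 9.83% of all genes were higher and 13.6% lower. The oxidation count was 1 without control replicate 4, Mdm2 ASO replicate 6-7 or Mdm2 ASO replicate 9 on HFHC. The count of higher bile acid genes was 1 without the first or second of these and 5 without Mdm2 ASO replicate 10 on HFHC, and that of lower lipoprotein genes was 1 without replicate 6-7. The 1 cholesterol gene lost its call when any of 12 single libraries was left out, and there were 2 without control replicate 3 on CDAHFD. Pltp, the phospholipid transfer protein, read 1809, 1890, 1454 and 1881 in HFHC controls and 7286, 8474 and 8003 with the Mdm2 ASO, against 329 to 562 and 340 to 468 on CDAHFD (difference -2.27 ± 0.21, limma adjusted p = 6.8e-07). Fgf21, a hormone of the fasted liver, fell on HFHC (difference 1.36 ± 0.42, adjusted p = 0.026), a call lost in 6 of 33 alternatives. Pcyt2, the enzyme of phosphatidylethanolamine synthesis, fell on HFHC (difference 1.11 ± 0.15), and in its list of 23 phosphatidylcholine and methionine cycle genes 1 was higher and 2 lower (median -0.0186). Leaving out 1 library gave 1 to 3 higher (3 without Mdm2 ASO replicate 10 on HFHC) and 0 to 2 lower (0 without Mdm2 ASO replicate 9 on HFHC), and the sign of the median changed in 9 of 33 alternatives.

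In 20 NRF2 antioxidant genes, which detoxify reactive molecules, 6 were higher and 4 lower (median 0.369), where 9.83% of all genes were higher and 13.6% lower. Hmox1, which breaks down heme, read 597, 779, 721 and 804 in HFHC controls and 3449, 4846 and 3148 with the Mdm2 ASO, then 617, 967, 925, 1181 and 981 and 413, 625, 390, 613 and 734 on CDAHFD. It rose on HFHC and fell on CDAHFD, with the CDAHFD groups overlapping (difference -3.14 ± 0.29, limma adjusted p = 5.73e-07). Glul, the glutamine synthetase of cells around the central vein, fell on HFHC (difference 1.10 ± 0.21, adjusted p = 0.000713). Mup20, a male urinary protein, read 67050 to 124155 and then 23763 to 31659 on HFHC (difference 1.78 ± 0.33), and belongs to a family of near-identical copies among which reads can be split. In its list of 31 sex-biased and growth hormone genes 4 were higher and 3 lower (median 0.286), beside 9.83% and 13.6% of all genes. The lower ones numbered 0 without Mdm2 ASO replicate 6-7 and 1 without control replicate 4 on HFHC.

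Of 36 p53 target genes, 7 were higher on CDAHFD and 1 lower (median 0.201), beside 9.83% and 13.6% of all genes. The count of higher calls ranged from 2 to 10 over the alternatives and was 4 without Mdm2 ASO replicate 9 on HFHC, and that of lower calls was 2 or 3 when any of 8 single libraries was left out. On each diet 14 of the 36 rose, where 15.2% of all genes rose on HFHC and 8.11% on CDAHFD. On HFHC 4 of the 36 fell and on CDAHFD 0, where 12.9% and 10.1% of all genes fell. Pmaip1 (Noxa), which triggers cell death at the mitochondrion, was the 1 that was lower. It read 45.4, 73.0, 39.9 and 45.0 in HFHC controls and 257, 242 and 194 with the Mdm2 ASO, against 24.7 to 71.7 and 20.4 to 73.3 on CDAHFD (difference -2.38 ± 0.51, limma adjusted p = 0.00239).

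Tnfrsf10b, the death receptor for TRAIL, did the reverse. It read 81.5, 52.8, 44.2 and 61.0 and then 75.9, 47.3 and 43.4 on HFHC, and 54.7, 64.7, 126, 81.4 and 100 and then 284, 204, 262, 163 and 179 on CDAHFD. The groups overlapped on HFHC and were apart on CDAHFD (difference 1.5 ± 0.38, limma adjusted p = 0.00713). Pidd1, which assembles a caspase-2 complex, rose on both diets, by 0.54 and 1.21 (difference 0.67 ± 0.19, adjusted p = 0.0135), a call lost in 3 of 33 alternatives. Ephx1, an epoxide hydrolase, fell on HFHC and rose on CDAHFD (difference 0.84 ± 0.18, adjusted p = 0.00188).

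The genes called in each direction also differed in base composition. GC content and length were those of the longest transcript of each gene (GENCODE M21). The median GC content was 53.8% for genes higher on CDAHFD, 48.4% for those lower and 49.7% over all tested. The median lengths were 2600, 3640 and 3130 bases in the same order. In the 10% of genes of lowest GC (30.9 to 41.4%) 4.93% were higher and 15.5% lower. In the 10% of highest GC (57.8 to 83.3%) 21.9% were higher and 9.06% lower. When the trend with GC and length was removed from each library, 3578 genes were called, 1500 higher and 2078 lower, and 3125 of the 3832 were called with the same sign.

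**Figure D5:**
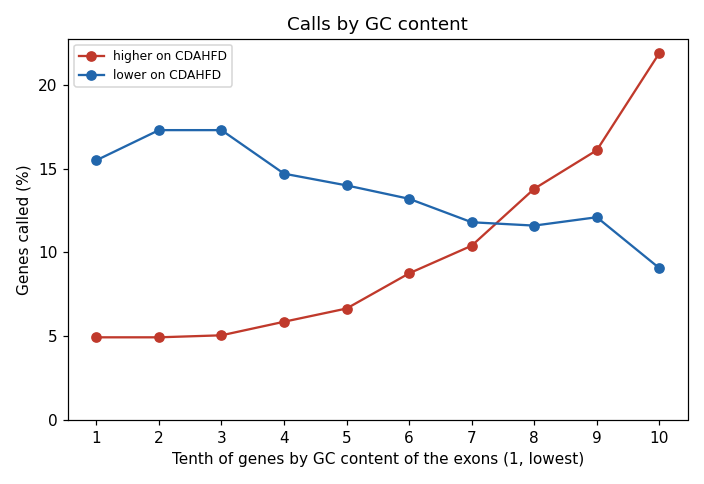
Percentage of genes called (vertical axis, from 0) in each 10% of genes by GC content of the exons of the longest transcript (horizontal axis, 1 the lowest). The share higher on CDAHFD climbs from 4.93% to 21.9%, and the share lower falls from 15.5% to 9.06%.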

How the data were processed

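Liver RNA of the 18 deposited samples was sequenced as strand-specific mRNA libraries, per the labels' protocols. Replicates 6 and 7 of the Mdm2 ASO on HFHC held identical values, so 18 separate animals are not shown. The deposited values are signals, TMM-normalized counts per gene in 1 table for each diet, made by the authors with STAR 2.7.10b and featureCounts (Subread 2.0.3) on GRCm39, per the submitters' processing notes. In each library 99.99% to 100% of values were whole multiples of the smallest value above 0 (within 0.001), which gave the reads back, and edgeR on those reads called 3803 genes.

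Genes were joined by identifier and fitted in R 4.3.3 with limma 3.58.1 (trend) on log2(value + 0.5), with 4 group means and Benjamini-Hochberg adjustment over all genes tested. Alternatives used edgeR 4.0.16, DESeq2 1.42.0 and limma-voom on recovered reads, other scalings, filters and added values, a replicate block and each library left out. The model was also run on simulated reads in which chosen genes changed only in the Mdm2 ASO livers on CDAHFD. That setting held no other effect of ASO or diet and is simpler than these data. The members and the 39 gene lists were chosen with earlier results of these data known, and the text names part of what the rule allows: Mdm2, Mdm4, Trp53, Cdkn1a, Asgr1 and Asgr2, the 8 smallest p and 8 largest differences in each direction, 6 per opposite pattern and up to 4 called members per list. The largest differences and opposite patterns needed a group mean of at least 32, and model symbols, Y-linked genes and Xist were left out. Depth differed between diets, 17800000 to 18800000 against 22400000 to 31500000 reads.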

Additional observations from a re-analysis of the deposited data

Results flagged for a closer look

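The effect of the Mdm2 ASO differed between the diets, by the interaction contrast of the limma fit, in 97 of the 102 genes that the text names. All except Mdm2, Mdm4, Trp53, Cdkn1a, Asgr1 and Asgr2 were named because they passed this test, so the count was set by the choice of genes. Over all genes tested, 23.5% passed. Lower on CDAHFD, with the log2 difference of each, were -7.35 for Ankdd1a, -7.31 for Negr1, -6.90 for Htra4, -6.29 for Mpo, -6.28 for Sh2d1b1, -6.22 for Il10, -5.89 for Radx, -5.81 for Klra17 and -5.34 for Spn. The log2 difference was -5.23 for Fcgr4, -4.29 for Itgb2, -4.25 for Itgax, -4.24 for Ppbp, -4.16 for Cd79b, -4.04 for Prss30, -3.98 for Itgam, -3.92 for Adgre4 and -3.63 for Rnf144a. Next in size stood -3.49 for Rab44, -3.43 for Ncapg, -3.17 for Aurkb, -3.14 for Hmox1, -2.95 for Csf3r, -2.86 for Slfn4, -2.85 for Mki67, -2.84 for Laptm5 and -2.79 for Stap1. Then followed -2.70 for Top2a, -2.64 for Lyn, -2.51 for G6pdx, -2.45 for Casp1, -2.41 for Ccl6, -2.40 for Cd68, -2.38 for Pmaip1, -2.35 for Ptpn6 and -2.33 for Tgfb1. Smaller still were -2.27 for Pltp, -2.23 for Klf2, -2.19 for Mcm3, -2.17 for Csf1r, -2.17 for Ptpn1, -2.09 for Cd5l, -2.0 for Pecam1, -1.97 for Dusp12 and -1.71 for Rap1b. The rest were -1.68 for Ifit2, -1.67 for Atp2b1, -1.56 for Pparg, -1.5 for Vim, -1.41 for Cd47, -1.40 for Gbp7, -1.34 for Colec10, -1.25 for Zbp1 and -1.23 for Itga2b. Smallest were -1.08 for Irf7, -1.05 for Nr1h3 and -0.83 for Rpl3. Higher on CDAHFD, with the log2 difference of each, were 4.10 for Cyp21a1, 3.59 for H2-M2, 3.57 for Cftr, 3.54 for Mir6236, 3.38 for Irx1, 3.27 for Cyp4a12b, 3.24 for Col4a6, 3.20 for Slc6a7 and 3.17 for Krt23. Positive differences also stood at 2.92 for Bex4, 2.78 for Cyp46a1, 2.55 for Ulk4, 2.12 for Spp1, 2.11 for Lars2, 2.10 for ND3, 2.06 for Zfp979, 2.03 for Cyp2u1 and 1.85 for Foxa2. Further values were 1.78 for Mup20, 1.66 for Saa2, 1.54 for Dbp, 1.5 for Tnfrsf10b, 1.46 for Notum, 1.36 for Fgf21, 1.31 for ND2, 1.17 for Mlxipl and 1.16 for Adcy6. These were followed by 1.11 for Pcyt2, 1.10 for Glul, 1.09 for Ugt2b5, 1.02 for Gcgr, 0.99 for Cdc42bpg, 0.98 for Gstt2, 0.95 for Mmaa, 0.93 for Cox6b1 and 0.92 for Fasn. Last came 0.84 for Ephx1, 0.83 for Cox5b, 0.67 for Pidd1 and 0.49 for Asgr1.

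Of 306 sets of 4 or 5 libraries of 1 gene and group, 26 held a library far from the others of its group, by the gap to its nearest neighbour over the group's range, where chance flags about 1 in 20. The library with most of these was Mdm2 ASO replicate 7 on CDAHFD, with 7, all the highest: 19.9 for Ankdd1a, 18.8 for Negr1, 28.3 for Htra4, 90 for Sh2d1b1, 45.0 for Il10, 69.1 for Klra17 and 943 for Fcgr4. Over the 615 genes that rose on HFHC and were lower on CDAHFD by at least 4-fold, the highest of the 5 Mdm2 ASO livers on CDAHFD was replicate 10 in 287 (46.7%), replicate 7 in 187 (30.4%), replicate 9 in 98 (15.9%), replicate 6 in 26 (4.23%) and replicate 8 in 17 (2.76%). Replicate 10 of that group was the highest at 6.79 for Mpo, 213 for Itgam and 347 for Ccl6, replicate 6 at 861 for Mdm2 and replicate 8 at 14739 for Mlxipl.

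Among CDAHFD controls, replicate 1 stood apart at 5.36 for Ankdd1a and at 334, the lowest, for Tgfb1, replicate 3 at 25.7 for Col4a6 and 59.6 for Bex4, and replicate 5 at 10.3 for Il10. Among HFHC controls, replicate 1 was the lowest at 907 for Mdm2 and the highest at 180 for Ifit2 and 49.5 for Aurkb. Replicate 2 was the lowest at 34.8 for Slc6a7 and the highest at 73.0 for Pmaip1. Replicate 4 was the highest at 187 for Gbp7 and 204071 for ND2. Replicate 5 was the highest at 16.0 for Mpo and the lowest at 8.99 for Ncapg.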

How the results depend on the processing

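Over 33 alternatives, 94 of the 102 named genes kept their sign and their side of the threshold, and the number of genes called lay between 3033 and 4500 beside 3832. Most named genes were chosen by these same calls, so the 94 do not measure how stable the calls are. Of the 3832 calls, the share called again with the same sign ran from 69.5% (replicate block, merged library as number 6) to 99.7% (1 added before the logarithm). Genes higher on CDAHFD numbered 2440 with quantile normalization and 972 with each library scaled to the same total, beside 1606. Genes called on both diets in the same direction numbered 46 with the same total and 130 with DESeq2, beside 74. Leaving out 1 library at a time gave 3084 to 4029 genes in all, 1263 to 1654 higher, 1806 to 2375 lower and 1587 to 1906 of at least 2-fold. Genes called on CDAHFD alone then ranged from 511 (without control replicate 2 on CDAHFD) to 838, beside 771. The difference of Mdm2 reversed to -0.01348 with the same total, -0.05608 with the replicate block, -0.01581 without Mdm2 ASO replicate 10 on HFHC and -0.003633 without Mdm2 ASO replicate 6 on CDAHFD (up to 0.2175 without replicate 6-7 on HFHC). That of Trp53 reversed to -0.08376 with the same total, -0.03211 with both identical columns kept, -0.02785 without control replicate 5 on HFHC, -0.0942 without Mdm2 ASO replicate 10 on HFHC and -0.001814 without Mdm2 ASO replicate 6 on CDAHFD (up to 0.1661 without replicate 6-7 on HFHC). Neither passed in any of these. The correction for GC and length was chosen after seeing the data.

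With the replicate number as a block, 3033 genes were called with the merged library as number 6 and 3105 as number 7, and 69.5% and 70.5% of the 3832 were called with the same sign. The block took away the calls of Asgr1, ND2 and, as number 7, Pidd1, at adjusted p of 0.105 to 0.168, 0.0612 to 0.0804 and 0.0993. The labels give no shared animal or day behind the numbers. The correlation of deviations in 8 same-numbered pairs across diets ran from -0.206 to 0.232 (median 0.109), over 0.1 in 4. In pairs of unlike number with the same ASO it ran from -0.425 to 0.344. So few pairs cannot show whether the numbers pair the samples. Within-diet patterns could not be fitted with the block, since each number belongs to 1 ASO. Where leaving out 1 library ended the calls of Asgr1, Fgf21, Dbp and Pidd1, the adjusted p was 0.0515 to 0.0745, 0.0516 to 0.0926, 0.0521 to 0.109 and 0.0525, in that order. Genes of few reads, such as Ankdd1a, have differences that depend on the value added before the logarithm. The cause of these changes was not tested.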

Other observations

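The counts of called members in other gene lists stand beside 9.83% of all genes higher on CDAHFD and 13.6% lower. Of 35 ribosomal protein genes 12 were lower on CDAHFD and 0 higher (median -0.221, 7 to 16 lower over the alternatives). Rpl3, a protein of the large ribosomal subunit, had means of 3353 and 5173 on HFHC and 6476 and 5607 on CDAHFD in control and Mdm2 ASO livers (difference -0.83 ± 0.12, limma adjusted p = 4.81e-05). Of 16 immediate early genes 3 were lower and 0 higher (median -0.838), with 6 without control replicate 2 on HFHC, 5 without Mdm2 ASO replicate 6-7 on HFHC and 8 without Mdm2 ASO replicate 10 on CDAHFD. Klf2, a transcription factor of endothelium and leukocytes, had a difference of -2.23 ± 0.37. Of 21 circadian clock genes 4 were higher and 0 lower (median 0.113). The count was 1 when Mdm2 ASO replicate 6-7, control replicate 2 or control replicate 4 on HFHC or Mdm2 ASO replicate 7 on CDAHFD was left out, and 2 when Mdm2 ASO replicate 8, control replicate 2 or control replicate 3 on CDAHFD was left out, and the sign of the median changed in 4 of 33 alternatives. Dbp, a clock output factor, read 673 to 1673 in CDAHFD controls and 1836 to 4263 with the Mdm2 ASO (difference 1.54 ± 0.49, adjusted p = 0.03, lost in 8 of 33 alternatives, and 0.97 without Mdm2 ASO replicate 6-7 on HFHC).

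Of 15 hepatic stellate cell genes 6 were lower on CDAHFD and 0 higher (median -0.497), and the count was 3 without control replicate 4, Mdm2 ASO replicate 6-7 or Mdm2 ASO replicate 9 on HFHC. Colec10, a collectin, differed by -1.34 ± 0.32. Of 15 sinusoidal endothelial genes 1 was lower and 1 higher (median -0.194), the higher call being lost when any of 8 single libraries was left out and the lower one being Pecam1, an adhesion protein of endothelium and platelets (difference -2.0 ± 0.36). Of 34 fibrosis and matrix genes 3 were higher and 3 lower (median -0.0886), with Vim, an intermediate filament, at -1.50 ± 0.37. The higher ones numbered 0 without Mdm2 ASO replicate 6-7, 1 without control replicate 1 and 5 without control replicate 2 on HFHC, the lower ones 6 without Mdm2 ASO replicate 10 on CDAHFD, and the sign of the median changed in 8 of 33 alternatives. Of 18 acute phase genes 2 were higher and 1 lower (median -0.22), with Saa2, a serum amyloid, at 1.66 ± 0.36. The higher ones numbered 1 without Mdm2 ASO replicate 6-7 and 4 without replicate 10 on HFHC, and the lower ones 2 when any of 7 single libraries was left out.

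Of 24 urea cycle and amino acid genes 5 were higher on CDAHFD and 0 lower (median 0.205), of 25 endoplasmic reticulum and integrated stress genes 5 and 2 (median 0.151), of 25 glucose and fructose genes 4 and 2 (median -0.055) and of 3 pancreas and adipose genes 1 and 0 (median -0.319). The urea cycle count was 8 without control replicate 1 and 3 without control replicate 2, Mdm2 ASO replicate 6-7 or Mdm2 ASO replicate 9 on HFHC. The higher stress genes numbered 3 without control replicate 4 or Mdm2 ASO replicate 9 on HFHC, and the higher glucose and fructose genes 2 without control replicate 4 on HFHC. The pancreas and adipose call was lost without control replicate 1 or Mdm2 ASO replicate 6-7 on HFHC. The median changed sign in 5 of 33 alternatives for the glucose and fructose genes and in 8 for the pancreas and adipose genes. The lower calls of the stress and of the glucose and fructose genes numbered 1 when any of 10 and any of 13 single libraries was left out. Called genes made up between 16.9% (chromosome 18) and 27.6% (chromosome 11) of those tested on each nuclear chromosome.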
